A study of Homo sapiens with 2 samples.

Results

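The HOX genes were read as a record of positional identity in MRC-5 cells, an established fibroblast line derived from human fetal lung, with and without knockdown of periostin. They were taken as every gene whose symbol is HOX, a cluster letter from A to D and a number, named through the RefSeq accession that the array design gives for each spot, and 39 such genes were found among 21743 named genes. They were measured by 43 probes on 52 spots of the 58717 spots that are not controls, and comprised 11 genes of the HOXA cluster, 10 of HOXB, 9 of HOXC and 9 of HOXD, which are all 39 HOX symbols of the annotation used. RNA of 1 culture transfected with control siRNA and of 1 culture transfected with siRNA against periostin (POSTN), each at 10 nM for 48 h, was hybridised to 1 single-colour Agilent array, side by side on 1 slide. No condition was repeated, so every value below is a description of these 2 arrays and no p-value is given. The study made this comparison to find genes whose expression depends on periostin, a matricellular protein that fibroblasts secrete.

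HOX genes encode homeodomain transcription factors that lie in 4 clusters, and genes at the same place of different clusters, called paralogues, share a number. During development the low-numbered genes are used from the head and neck region onwards and the high-numbered ones towards the tail and the ends of the limbs, in the order in which they lie along the chromosome. Fibroblasts keep much of the HOX pattern of the body site they came from when they are grown in culture, and genes from the middle of the clusters, HOXA5 and HOXB5 among them, take part in the growth and branching of the embryonic lung.

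All signals given are processed spot intensities scaled so that both arrays had the same 75th percentile, in arbitrary units, and a ratio is the signal with periostin siRNA over that with control siRNA. POSTN, the targeted gene, went from a signal of 2638 in control cells to 280 in knockdown cells on its 1 spot, which is 9.43-fold lower (log2 ratio -3.24 ± 0.20, propagated spot error). Of all spots, 58.0% carried the scanner program's flag for a signal well above background in control cells and 58.9% in knockdown cells, and 0 spots were saturated. The log2 ratio varied between the spots of a probe printed 10 times with a pooled SD of 0.12 over 667 probes, 0.24 among the dimmest 134 of them and 0.05 among the brightest 134, and none of these errors covers the difference between cultures. Of the fibroblast markers COL1A1, COL1A2, COL3A1, THY1, PDGFRB, VIM, FN1, LUM and DCN, 9 of 9 were well above background on both arrays. Among all named genes 71% were so flagged with control siRNA and 71.6% with periostin siRNA. The summed signal of these markers was 351936 and then 316967. Of the epithelial markers 2 of 6 were well above background on both arrays, with a summed signal of 77.6 and then 205, and CDH1, KRT5, KRT14 and SFTPB were not well above background on either. The epithelial EPCAM was at 34.6 with control siRNA and at 135 with periostin siRNA, and SFTPC was at 33.8 and then 53.3. The endothelial CDH5, at 49.5 and then 46.5, and VWF, at 72.1 and then 79.8, were well above background on both arrays, and PECAM1 on neither. Of the endothelial markers 3 of 4 and then 2 of 4 were well above background, with a sum of 133 and 130. Of the immune markers it was 1 of 6 and then 2 of 6, with a sum of 29.7 and 48.6, and of the skeletal muscle markers 1 of 4 and then 2 of 4, with a sum of 30.5 and 36.0. Whether other cell types took part in any HOX value was not tested. In RNA from a whole culture, fewer cells using a gene and less of its RNA per cell cannot be told apart.

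In control cells 20 of the 39 HOX genes were well above background, that is 51.3%, beside 71% of all named genes. By cluster these were 8 of 11 HOXA genes (HOXA2, HOXA3, HOXA4, HOXA5, HOXA6, HOXA7, HOXA9 and HOXA10), 7 of 10 HOXB genes (HOXB2 to HOXB8), 3 of 9 HOXC genes (HOXC4, HOXC6 and HOXC8) and 2 of 9 HOXD genes (HOXD4 and HOXD9). By paralogue number, 4 of 8 genes numbered 1 to 3 were above background, 13 of 15 numbered 4 to 8 and 3 of 16 numbered 9 to 13. The middle of the clusters was thus the most completely detected stretch, with 4 of 4 HOXA genes, 5 of 5 HOXB genes, 3 of 4 HOXC genes and 1 of 2 HOXD genes. At the high-numbered end of the clusters, 0 of 3 genes numbered 11, 0 of 2 numbered 12 and 0 of 4 numbered 13 were well above background on either array.

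With periostin siRNA 19 of 39 HOX genes were well above background, or 48.7%, beside 71.6% of all genes. The same 18 genes were so flagged on both arrays, HOXD4 and HOXD9 with control siRNA only, and HOXC9 with periostin siRNA only. Over all genes, 2.19% were well above background with control siRNA only and 2.86% with periostin siRNA only. The counts by cluster were therefore 8 and 8 for HOXA, 7 and 7 for HOXB, 3 and 4 for HOXC and 2 and 0 for HOXD, with control and periostin siRNA in that order.

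**Figure D1:**
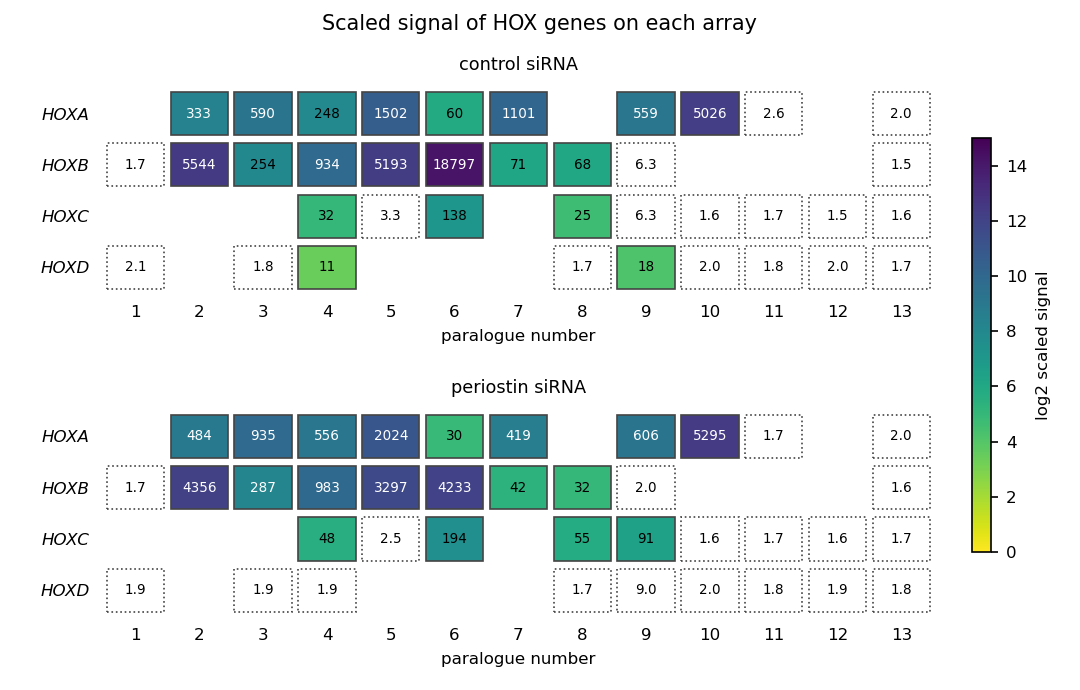
Scaled signal of the HOX genes described, with control siRNA (upper grid) and periostin siRNA (lower grid), by cluster (rows) and paralogue number (columns). Filled boxes are genes well above background, coloured by log2 signal, and dotted boxes are genes that were not, so that the filled boxes lie mostly at paralogues 2 to 10 of HOXA and HOXB; each gene has its own probe, and colours of different genes do not compare amounts of RNA.

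The other 18 HOX genes were well above background on neither array and have no ratio. The 17 of them described here were HOXA11 and HOXA13, HOXB1, HOXB9 and HOXB13, HOXC5, HOXC10, HOXC11, HOXC12 and HOXC13, and HOXD1, HOXD3, HOXD8, HOXD10, HOXD11, HOXD12 and HOXD13. Their signals lay between 1.51 and 6.35 with control siRNA (median 1.78) and between 1.56 and 2.45 with periostin siRNA (median 1.77). The lowest signal of any spot that was flagged as well above background was 7.55 in control cells and 7.77 in knockdown cells, and the 99th percentile of the 308 negative control spots was 2.18 and 2.69. HOXB9 at 6.35 and HOXC9 at 6.34, both with control siRNA, were the nearest below the flagged range. HOXD1 was the only HOX gene printed 10 times, and 1 of its 10 spots with control siRNA was well above background at 12.1, with an outlier flag, while the others lay between 1.53 and 1.91. With periostin siRNA 0 of its 10 spots were so flagged and they lay between 1.56 and 2.77, so HOXD1 was counted as not well above background.

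A ratio or a bound could be given for 21 HOX genes. HOXB6 was the only HOX gene lower by more than 3-fold, and HOXC9 the only one higher by more than 3-fold. Among the 16052 genes with a ratio, 2.75% were lower and 3.37% higher by more than 3-fold, so that 1 of 21 in each direction lies near the share of all genes. At 2-fold, 5 HOX genes were lower (HOXA6, HOXA7, HOXB6, HOXB8 and HOXD9), where all genes gave 6.42%, and 3 were higher (HOXA4, HOXC8 and HOXC9), where all genes gave 7.97%. The median log2 ratio of the 21 HOX genes was 0.08, beside 0.06 over all genes, with 9 below 0 and 12 above 0 (45.5% and 54.5% of all genes). Without the 3 bounds, whose direction was fixed by the array that flagged them, 7 were below and 11 above 0, with a median of 0.10. The HOX median thus lay close to that of all genes. Of the 18 HOX genes well above background on both arrays, 12 lay within 2-fold (66.7%), beside 87.2% of 14957 genes, and the SD of their log2 ratios was 0.91, beside 0.75.

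HOXB6 lies in the middle of the HOXB cluster and was measured by 1 spot. Its signal was 18797 in control cells and 4233 in knockdown cells, and it fell by 2.15 on the log2 scale (error 0.20), or 4.44-fold. This fall was past 3-fold in 11 of 11 processing settings, between -2.28 and -2.11. Several settings could not alter a gene with 1 unflagged spot, or shifted it only by 1 constant per array. The count of settings is therefore no measure of its certainty. The other HOXB genes differed less from control cells. HOXB5, a gene of lung branching, was at 5193 and then 3297, a log2 ratio of -0.66 ± 0.20. HOXB2, which patterns the hindbrain, was at 5544 and then 4356 (-0.35 ± 0.20), and its second probe, at 633 and then 479, gave -0.40. HOXB4, known for its part in blood stem cells, was at 934 and then 983. That ratio, 0.07 ± 0.20, was smaller than its own spot error and its sign changed under scaling on the array median, to -0.055. HOXB3 was at 254 and then 287 (0.18 ± 0.20), again within the spot error. The dimmer pair at the end of the detected stretch lay lower with periostin siRNA: HOXB7 was at 70.7 and then 41.8 (-0.76 ± 0.21), and HOXB8 was at 68.0 and then 31.8 (-1.10 ± 0.22), 2.14-fold lower. In all, 5 of 7 HOXB ratios were below 0, with a median of -0.66.

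In the HOXA cluster the sign changed along the cluster, with 4 of 4 ratios above 0 from HOXA2 to HOXA5, HOXA6 and HOXA7 below 0, and HOXA10 and the brighter of the HOXA9 probes near 0. HOXA2, which patterns the second pharyngeal arch, was at 333 in control cells and 484 in knockdown cells, a log2 ratio of 0.54 ± 0.20. HOXA3, needed for the thymus and parathyroid, was at 590 and then 935 (0.66 ± 0.20). HOXA4 was at 248 and then 556, which is 2.24-fold higher (1.17 ± 0.20). These 3 genes and HOXA5 were all brighter with periostin siRNA. HOXA5, whose loss in mice disturbs the trachea and lung, was at 1502 and then 2024 (0.43 ± 0.20). The next genes lay on the other side. HOXA6 was at 60.2 and then 29.5, 2.04-fold lower (-1.03 ± 0.22), and HOXA7 was at 1101 and then 419, 2.63-fold lower (-1.39 ± 0.20). Neither passed 3-fold in any of 11 settings, and the HOXA6 ratio shrank to -0.45 under the normexp background correction. Beyond them, HOXA10, known from uterus and blood development, was at 5026 and then 5295 (0.08 ± 0.20), a difference within its spot error, whose sign changed under the same scaling, to -0.053. A second HOXA10 probe was not well above background on either array, at 1.68 and 1.69.

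The probes of HOXA9, a gene best known from blood cells and leukaemia, disagreed. The brighter probe was at 559 and then 606 (0.12 ± 0.20). The other was at 56.6 and then 7.36, no longer well above background, and so at least 7.29-fold lower. Averaged over both probes the gene gave -1.41, so no direction of HOXA9 can be given. Counting the brighter probe, 6 of 8 HOXA ratios were above 0 and the median was 0.27.

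The 3 HOXC genes well above background on both arrays were above 0, with a median log2 ratio of 0.59. HOXC9 has a bound only because it was flagged with periostin siRNA, so its direction was fixed by that flag, and with it the median is 0.87. HOXC9, a gene of the lower thoracic region, was not well above background with control siRNA, at 6.34, and was at 90.7 with periostin siRNA. Against the lowest control signal flagged as well above background it rose by at least 3.59 on the log2 scale. Under the normexp correction, which adds an offset of 50 to both arrays, its log2 ratio was 1.18 and no longer past 3-fold. It was past 3-fold in 9 of the 10 settings that gave it a value. Several of these could not alter a gene measured by 1 spot. HOXC8, also of the thoracic region, was at 24.8 and then 54.9, 2.21-fold higher (1.15 ± 0.23). HOXC6 was at 138 and then 194 (0.49 ± 0.21). HOXC4 was at 31.7 and then 47.9 (0.59 ± 0.23). The normexp correction brought these 3 ratios to 0.44 for HOXC8, 0.33 for HOXC6 and 0.28 for HOXC4. Of the 9 HOXD genes, HOXD4 and HOXD9 were flagged with control siRNA only, which fixed the direction of their bounds. HOXD4 was at 10.7 and then 1.87, at least 1.38-fold lower. HOXD9 was at 18.2 and then 9.05. Its signal of 9.05 was above the lowest flagged signal on that array, so 2.02-fold lower is the plain ratio and no minimum. Its second probe, at 2.41 and 1.91, was not well above background on either array.

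**Figure D2:**
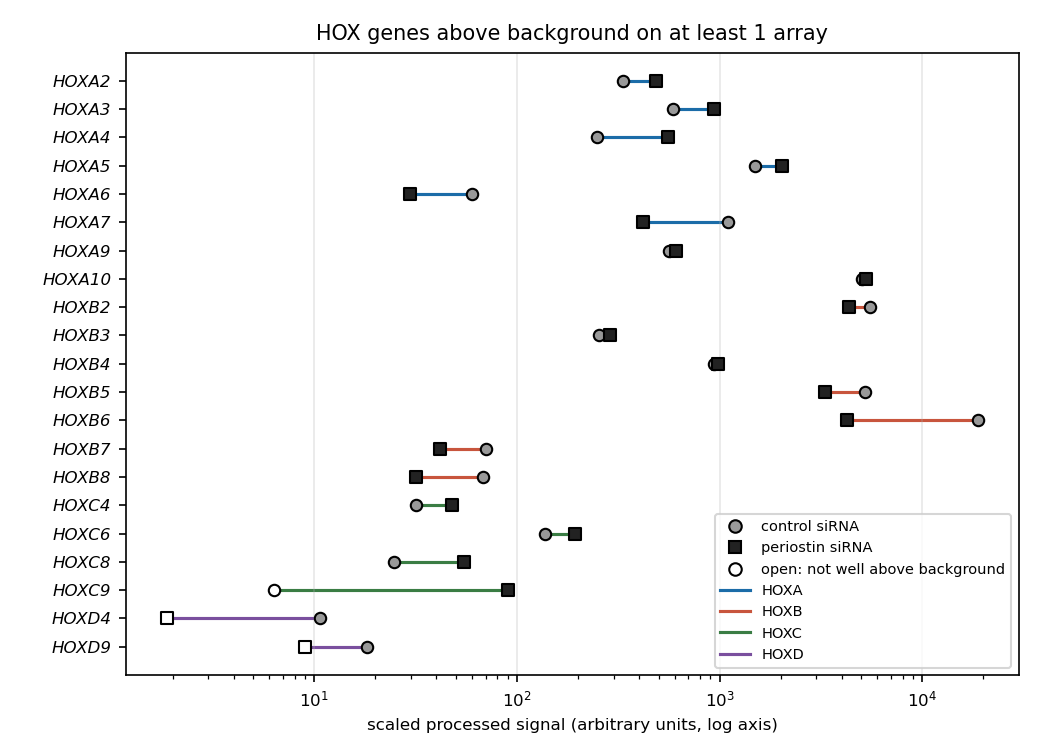
Scaled signal (log axis, arbitrary units) of the 21 HOX genes well above background on at least 1 array, with control siRNA (circles) and periostin siRNA (squares), joined by a line in the colour of the cluster; open symbols were not well above background. HOXB6 moves from 18797 to 4233 and HOXC9 from 6.34 to 90.7, while HOXA10 and HOXB4 overlap.

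The ratios were also read by paralogue number across clusters. Genes numbered 1 to 3 had a median log2 ratio of 0.36 over 4 genes, and those numbered 9 to 13 of 0.10 over 4 genes. Of the latter 4, HOXC9 and HOXD9 were bounds with a direction fixed by the flag. That median thus rests on HOXA10, within its spot error, and on HOXA9, whose probes disagreed. The 13 genes numbered 4 to 8 were split, 7 below and 6 above 0, and their median was -0.46, which is the HOXD4 bound itself. It was -0.29 over probes above background on both arrays and -0.22 under normexp. Smaller stretches were marked off after the values had been seen, and are given without a test. In HOXA and HOXB, 5 of 5 genes numbered 6 to 8 were below 0, from -2.15 for HOXB6 to -0.76 for HOXB7. Of those numbered 2 to 4, 5 of 6 were above 0, with HOXB2 as the exception, but HOXB3 and HOXB4 lay within their spot error. Number 5, left out of both stretches, was split, with HOXA5 at 0.43 and HOXB5 at -0.66. With it, 6 of 7 genes numbered 5 to 8 were below 0. Over all genes with a ratio, 45.5% were below and 54.5% above 0. The HOXC genes numbered 6 to 8 lay the other way from those of HOXA and HOXB, with 2 of 2 above 0, at 0.49 and 1.15. Paralogues thus lay on opposite sides of 0 at number 6, where HOXA6 was at -1.03, HOXB6 at -2.15 and HOXC6 at 0.49, and at number 8, where HOXB8 was at -1.10 and HOXC8 at 1.15. At number 7 HOXA7 and HOXB7 were both below 0. At number 4, HOXA4 was at 1.17, HOXC4 at 0.59 and HOXB4 at 0.07, and the HOXD4 bound of -0.46 was smaller than its spot error of 1.48.

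**Figure D3:**
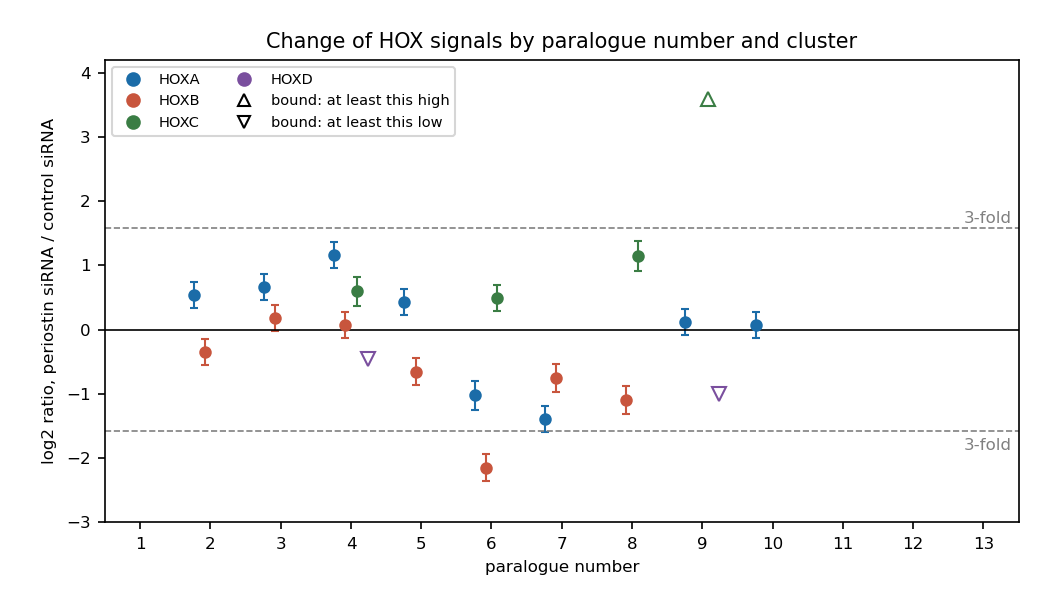
Log2 of knockdown over control signal (vertical axis) against paralogue number (horizontal axis), coloured by cluster. Bars are the propagated spot error, triangles are bounds for genes above background on 1 array alone, and dashed lines mark 3-fold; HOXA and HOXB genes numbered 6 to 8 lie below 0 and the HOXC genes drawn lie above it.

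Start sites of nearby HOXA genes that lay on opposite sides of 0 by more than 2-fold are shown so that their sequences can be set beside their values, and that of HOXC4 stands for the HOXC cluster. RefSeq (GRCh38.p14) windows of 300 bases around the transcript start were at hand for 20 of the 39 HOX genes, 26 distinct windows in all, of which 7 belong to HOXA3 and 2 to HOXA10, and HOXC4 and HOXC5 share theirs. Below are the 250 bases before the start of HOXA4 (chr7:27130758-27131007, minus strand), HOXA6 (chr7:27147775-27148024, minus strand), HOXA7 (chr7:27156676-27156925, minus strand) and HOXC4 (chr12:54016638-54016887, plus strand), 5′ to 3′ in the sense of the gene. Capitals mark the letters CCAAT read on the opposite strand.
HOXA4: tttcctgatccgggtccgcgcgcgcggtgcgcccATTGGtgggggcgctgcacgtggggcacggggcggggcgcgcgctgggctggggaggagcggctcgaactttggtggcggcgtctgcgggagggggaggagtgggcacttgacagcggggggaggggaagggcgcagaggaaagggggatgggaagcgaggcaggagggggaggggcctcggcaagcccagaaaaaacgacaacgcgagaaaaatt
HOXA6: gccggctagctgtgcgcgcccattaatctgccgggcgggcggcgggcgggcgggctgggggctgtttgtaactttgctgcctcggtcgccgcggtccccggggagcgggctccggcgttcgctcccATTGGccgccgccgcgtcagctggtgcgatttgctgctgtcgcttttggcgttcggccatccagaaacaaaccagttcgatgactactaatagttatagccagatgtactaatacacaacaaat
HOXA7: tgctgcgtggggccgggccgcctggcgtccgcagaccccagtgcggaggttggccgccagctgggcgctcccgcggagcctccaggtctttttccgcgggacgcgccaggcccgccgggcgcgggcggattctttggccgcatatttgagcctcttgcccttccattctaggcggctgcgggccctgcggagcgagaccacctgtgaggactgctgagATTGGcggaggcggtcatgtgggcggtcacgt
HOXC4: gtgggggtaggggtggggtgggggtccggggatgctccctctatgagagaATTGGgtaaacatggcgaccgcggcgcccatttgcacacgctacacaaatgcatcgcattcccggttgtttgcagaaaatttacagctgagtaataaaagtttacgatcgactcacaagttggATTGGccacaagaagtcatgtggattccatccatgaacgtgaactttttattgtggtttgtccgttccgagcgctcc

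Each of the 4 sequences held the motif, HOXC4 at 2 places, whether the gene was brighter or dimmer with periostin siRNA. Over whole windows and both strands, CCAAT was found in 17 of 26 HOX windows (65.4%), beside 34.6% of 34943 windows of all genes. TATAAA was found in 5 of 26 (19.2%, beside 11.6%) and TGATNNAT, letters bound by HOX proteins together with PBX partners, in 3 of 26 (beside 7.42% of all windows). The number of CpG pairs per window had a median of 22.5 in HOX windows, beside 14 in all windows. It was 18 in the 16 windows of HOX genes well above background in control cells and 24.5 in the 10 windows of the others, but 7 of the 16 are those of HOXA3, between 0 and 29. These letters describe the reference sequence, and no binding was measured.

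Noncoding RNAs are made from the HOX clusters as well, many of them antisense to the genes. Of 18 named ones, 9 could be matched on the array. Well above background were 5 with control siRNA and 4 with periostin siRNA, beside 71% and 71.6% of all named genes. The 5 had a median of 0.28 on the log2 scale, with HOXA11-AS entering as a bound. Past 3-fold were 0, where all genes with a ratio gave 2.75% lower and 3.37% higher. HOTAIRM1, made from the HOXA cluster, was at 1071 and then 1686 (0.65 ± 0.20). HOXB-AS3, made from the HOXB5 and HOXB6 region on the other strand, was at 4089 and then 5576 (0.45 ± 0.20). A second HOXB-AS3 probe was not well above background on either array, at 3.21 and 1.83. By the brighter probe the antisense RNA was higher with periostin siRNA where HOXB6 was 4.44-fold lower, each on 1 spot. Whether these values are linked was not tested. HOTAIR, made from the HOXC cluster, was at 156 and then 169 by the brightest of its 8 probes (0.12 ± 0.21). A dimmer probe, at 10.2 and then 7.67, was flagged with control siRNA only, which fixed its direction as lower. Most of the 8 were not well above background on either array. A further probe that the array names for HOTAIR, outside those 8, was at 118 and then 107 (-0.14 ± 0.21). HOXA11-AS was at 12.1 and then 2.53, at least 1.56-fold lower, a direction fixed by its flag with control siRNA only. Its second probe, at 1.98 and then 1.97, was not well above background on either array. HOXA-AS3 was at 24.6 and then 29.8. HOTTIP, HAGLR, HAGLROS and HOXD-AS2 were not well above background on either array. Outside that list, and picked after its value was seen, a transcript the array calls lnc-HOXA13-1:1 was at 2.45 and then 35.6, at least 4.72-fold higher.

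The genes that flank the clusters were measured to set the HOX values beside their chromosomal neighbours. Of 12 such genes 11 were on the array, 8 had a ratio and the median was 0.15. Past 3-fold were 0, where all genes gave 2.75% lower and 3.37% higher. EVX1, the homeobox gene next to HOXA13, was at 2383 and then 2533 (0.09 ± 0.20), and MTX2, beside HOXD, was at 1409 and then 1637 (0.22 ± 0.07, SD over 10 spots). CBX5, beside HOXC, was at 1229 and then 1028 (-0.26 ± 0.20). CALCOCO1, at the other side of HOXC and named after its value was seen, was at 586 and then 1399 (1.26 ± 0.20).

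HOX proteins bind DNA together with the homeodomain proteins of the PBX, MEIS and PKNOX families. Of 9 such cofactor genes 8 were on the array. Of them 8 of 8 were well above background on both arrays, beside 71% of named genes with control siRNA and 71.6% with periostin siRNA. Above 0 were 7 of 8, beside 54.5% of all genes with a ratio. Past 3-fold were 0, where all genes gave 2.75% lower and 3.37% higher. Their median log2 ratio was 0.45, beside 0.06 over all genes. PKNOX1 was at 1131 and then 1260 (0.16 ± 0.20) and MEIS1 at 778 and then 1224 (0.65 ± 0.20). The exception was PBX4, at 170 and then 110 (-0.63 ± 0.21). MEIS2 lay furthest from 0, at 189 and then 420 (1.15 ± 0.20).

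Polycomb proteins keep HOX genes silent and Trithorax proteins keep them active. Of 19 Polycomb genes 17 were on the array. All 17 were well above background on both arrays, beside 71% of named genes with control siRNA and 71.6% with periostin siRNA. Of them 7 lay below and 10 above 0, beside 45.5% and 54.5% of all genes with a ratio. Their median log2 ratio was 0.01 and 0 passed 3-fold, where all genes gave 2.75% lower and 3.37% higher. PHC2 was at 6777 and then 6206 (-0.13 ± 0.20), RBBP7 at 4706 and then 5796 (0.30 ± 0.10, SD over 10 spots) and RBBP4 at 2908 and then 2714 (-0.10 ± 0.20), with 1 of its 4 probes above 0, at 0.27. The alternative methyltransferase subunits lay apart: EZH2 was at 295 and then 168 (-0.81 ± 0.20), and EZH1 at 382 and then 733 (0.94 ± 0.20). The 9 Trithorax and H3K27 demethylase genes were all above background, with a median of 0.19 and 0 past 3-fold. DPY30 was at 4615 and then 5518 (0.26 ± 0.20), WDR5 at 2087 and then 1766 (-0.24 ± 0.20) and ASH2L at 1478 and then 1872 (0.34 ± 0.20). By the brightest probe of each gene, Trithorax ratios lay between -0.29 (RBBP5) and 0.34 (ASH2L), and those of Polycomb between EZH2 and EZH1. A dimmer KMT2A probe, at 11.7 and then 21.2, gave 0.86 ± 0.31.

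Upstream of the clusters in the embryo act the CDX genes and retinoic acid. The probes of CDX1 disagreed in sign, the brighter at 385 and then 457 (0.25 ± 0.20) and the other at 13.8 and then 11.8 (-0.22 ± 0.37), and CDX2 and CDX4 were not well above background on either array. Of 18 retinoic acid genes 13 had a ratio, 7 below and 6 above 0, beside 45.5% and 54.5% of all genes with a ratio. Their median was -0.03. Past 3-fold were 1 lower and 1 higher, where all genes gave 2.75% and 3.37%. DHRS3, an enzyme that lowers retinaldehyde, was at 290 and then 1375, and rose 4.74-fold (2.24 ± 0.20). STRA6, the cell-surface receptor for the retinol-binding protein, was at 126 and then 2.20, at least 16.2-fold lower, but its second probe was not well above background on either array, and the fall was not past 3-fold under the normexp correction. RXRA was at 5952 and then 4835 (-0.30 ± 0.20), RDH10, which makes retinaldehyde, at 1452 and then 2099 (0.53 ± 0.20) and the receptor gene RARG at 663 and then 513 (-0.37 ± 0.20). The probes of ALDH1A1 disagreed, at -0.96 ± 0.36 and, as a bound, 1.03.

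Positional identity is also held by transcription factors outside the clusters. Of 29 such genes 15 were well above background in control cells, beside 71% of all named genes. A ratio could be given for 16, with 9 below and 7 above 0, beside 45.5% and 54.5% of all genes with a ratio. Their median was -0.01 and 0 passed 3-fold, where all genes gave 2.75% lower and 3.37% higher. NKX2-5, a heart factor, was at 51024 and then 50833 (-0.01 ± 0.20) on the 1 spot of its 1 probe. Whether that probe reports NKX2-5 RNA was not tested, and signals of different probes do not compare amounts of RNA. TBX2, a T-box factor of the lung mesenchyme, was at 26080 and then 12415 (-1.07 ± 0.20). PITX1, known from the hindlimb, was at 15005 and then 39253 (1.39 ± 0.20), and its second probe gave 1.57. FOXF1, the lung mesenchyme forkhead gene, was at 7874 and then 6786 (-0.21 ± 0.07, SD over 10 spots), and NKX2-1, which marks lung epithelium, was not well above background on either array. Named after their values were seen, PRRX1 gave -1.37, PRRX2 -1.45 and TBX4 -1.35, each between 2-fold and 3-fold lower. TBX4 was dim, at 30.3 and then 11.9 (error 0.31). SHOX2 of the same list lay the other way, at 20.6 and then 44.5 (1.11 ± 0.25). TBX5, by the brighter of its 2 probes, was at 338 and then 336 (-0.01 ± 0.20).

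**Figure D4:**
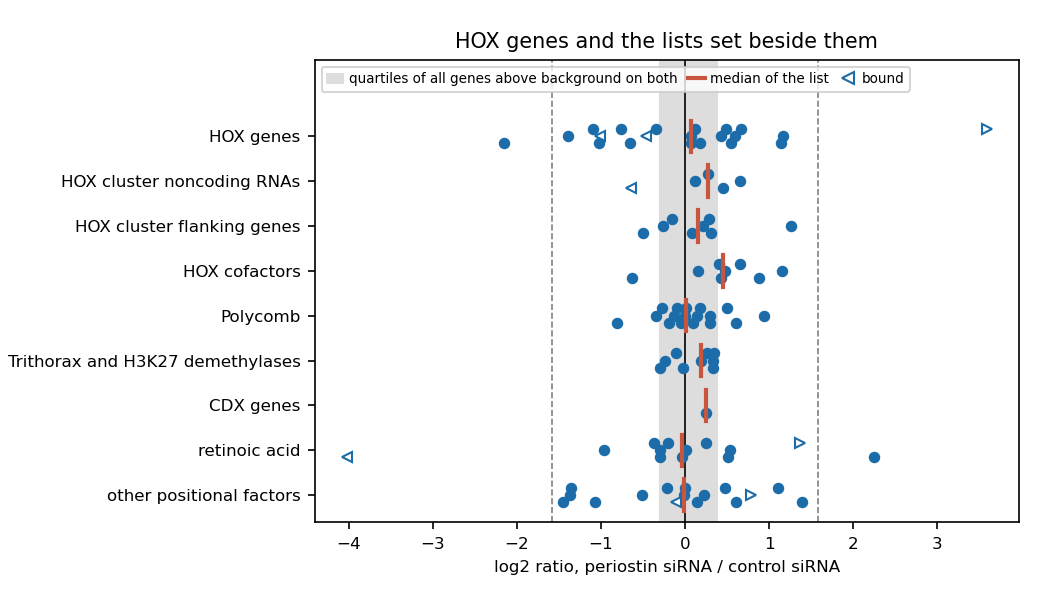
Log2 of knockdown over control signal for the HOX genes and for each list set beside them; each point is a gene, open triangles are bounds, red bars are list medians, dashed lines mark 3-fold and the grey band spans the quartiles of all 14957 genes well above background on both arrays. Points outside the dashed lines are HOXB6 and HOXC9 among the HOX genes and STRA6 and DHRS3 among the retinoic acid genes.

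**Figure D5:**
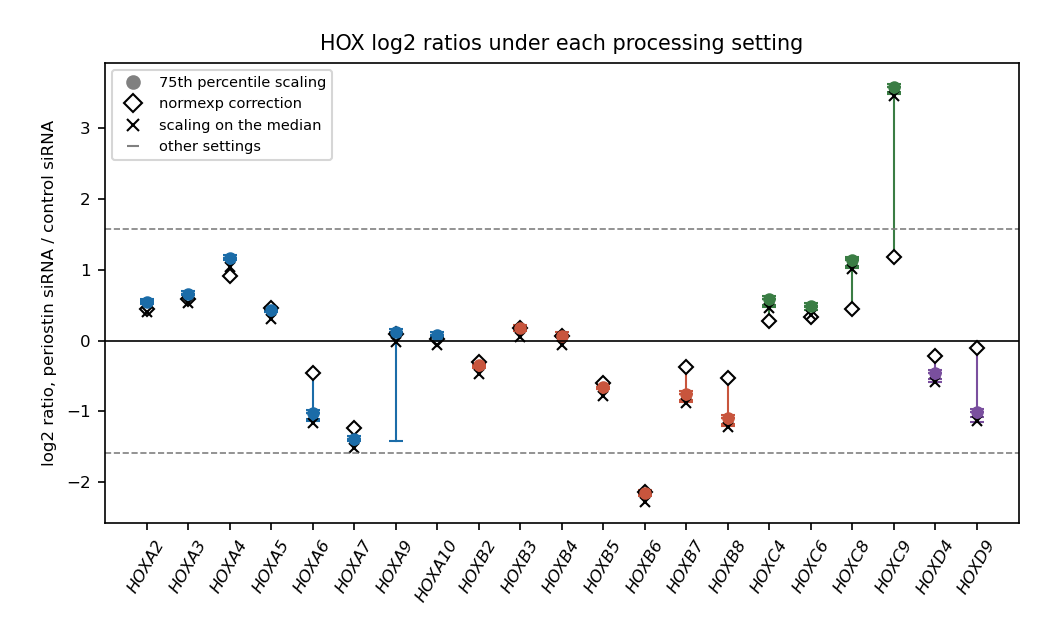
Log2 ratio of each of the 21 HOX genes with a value under each processing setting, where filled circles are the values reported, diamonds the normexp correction, crosses scaling on the median and dashes the other settings. HOXB6 stays between -2.28 and -2.11, HOXC9 drops to 1.18 with normexp, and HOXA9 reaches -1.41 when its probes are averaged.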

How the data were processed

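Total RNA was labelled with Cy3 and hybridised by the authors to an Agilent SurePrint G3 Human array. The authors deposited the scanner output, spot intensity values that Feature Extraction had background-subtracted and detrended without scaling between arrays. The version is 11.5.1.1 per the file headers and 12.0.3.1 in the submitters' processing notes. A normalized intensity table came from the authors as well, and it equalled the scanner values times 3.65 for control siRNA and 3.54 for periostin siRNA for 100% of 49697 probes printed once (within 0.1%); how it was normalized is not given in the sources used here.

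Processed signals were put on the log2 scale here and each array was centred on its 75th percentile (372 and 383). Control spots were left out and the spots of a probe were averaged on the log2 scale. The brightest probe stood for a gene. A gene above background on 1 array alone was set against its own dim signal or, if higher, the lowest signal flagged as above background on that array. The latter gives a lower bound of the fold and the former the plain ratio, and both are called bounds here. Genes above background on neither array have no ratio. Symbols came from RefSeq (GRCh38.p14), which named 65.1% of spots, and the array design was annotated on hg19, so coordinates are given only for RefSeq sequences.

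The labels give 1 array per condition, and the precision is limited by that number of arrays. Errors are the propagated spot error, or the SD over 10 spots, and no test between the conditions was run. The members and lists were chosen with earlier results of these data known. Every HOX gene is counted, and the single values of a few genes are not reported here. Described singly by rule are those past 3-fold, those with the 8 highest control signals and those whose probes differ in sign or by more than 1 on the log2 scale. The other HOX values are given besides, and of the other lists the members past 3-fold and up to 3 with the highest control signal, and POSTN. Other members named were chosen after their values were seen. The arithmetic of the calls was checked on simulated arrays, which says nothing of the spread between cultures. Alternatives were normexp with an offset of 50 on the median spot signal, no scaling, quantile normalization, scaling on the median or on spots above background on both arrays, loess with a span of 0.3, the authors' table, the mean over probes, filters on dim and flagged spots, a detection limit at the 99th percentile of negative controls, and thresholds of 2-fold and 4-fold. Python 3.11.15 with numpy 2.4.6, pandas 2.3.3 and statsmodels 0.14.6, and R 4.3.3 with limma 3.58.1, were used.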

Additional observations from a re-analysis of the deposited data

How the results depend on the processing

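No paired analysis was possible because there was only 1 array of each kind, and for the same reason no sample could be left out in turn. The normexp background correction left 0 HOX genes higher by more than 3-fold, gave -2.99 for POSTN, and left 0 genes of the surrounding lists lower by more than 3-fold. Keeping only probes above background on both arrays also left 0 HOX genes higher and 0 genes of those lists lower, and averaging the probes of a gene left 0 of those lists lower. At 2-fold, 5 of 21 HOX genes with a ratio were lower and 3 higher, and of the surrounding lists 5 were lower and 6 higher. Those lists held from 1 gene with a ratio (CDX) to 17 (Polycomb). Among all genes with a ratio, 6.42% were lower and 7.97% higher by that threshold. Scaling on the array median moved the median of all genes by -0.13 and that of the HOX genes to -0.053, and with it the sign of HOXA9, HOXA10 and HOXB4. Among all genes 441 were lower and 541 higher by more than 3-fold, and 190 and 143 under normexp, and the share of higher ones among them went from 55.1% to 42.9%. Scaling on the median gave 525 lower and 453 higher (46.3% higher), and no scaling 416 and 584 (58.4%). Under normexp the median of HOXB was -0.37, of HOXC 0.39 and of HOXD -0.16, HOXA6 gave -0.45, HOXB7 -0.37, HOXB8 -0.52 and HOXD9 -0.10. The cause of these shifts was not tested. By the limit from the negative controls, 24 HOX genes were above background with control siRNA and 21 with periostin siRNA. For single HOX genes and their clusters, 250 of 275 values stayed within the margin used and 0 called values reversed. That margin covers error between spots only, since 1 array per condition gives no spread between cultures. The 275 include settings that cannot move a value or only shift it by a constant. The signs of HOXA9, HOXA10 and HOXB4 still changed, as given above.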
